A study of Rattus norvegicus with 11 samples.

Results

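CC chemokines are small secreted proteins that draw leukocytes along a gradient, and each acts through G protein-coupled receptors on the responding cell. Ccl2 and Ccl7 are ligands of Ccr2, the receptor by which inflammatory monocytes leave the bone marrow and enter injured tissue. Ccl3, Ccl4, Ccl5 and Ccl6 act through other receptors, among them Ccr1, on macrophages, neutrophils and T cells. In the brain, activated microglia, astrocytes, endothelial cells and infiltrating leukocytes are all known sources of these ligands. The genes described here were chosen by name, as the rows whose gene symbol was Ccl2, Ccl3, Ccl4, Ccl5, Ccl6, Ccl7, Ccr1 or Ccr2. These 8 names gave 7 genes of the 30560 genes measured, 6 ligands and the receptor Ccr2, and Ccr1 is not analysed here.

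At day 3, bulk RNA was taken from the striatum of 11 adult male Sprague-Dawley rats, on the injected side after hemorrhage and from the matching region in Normal, and sequenced as 1 library per rat. Collagenase VII-S, an enzyme that breaks down the wall of small vessels, was injected into the right striatum at 0.2 U in 1.0 µL in 3 rats of common hemorrhage (IC) and at 0.6 U in 3.0 µL in 3 rats of severe hemorrhage (IS). The 3 IS-HA rats received the IS dose, and 150 µL of the hematoma was aspirated at 6 h. For the 2 Normal rats the labels give neither injection nor aspiration. Effects of the needle, of the injected volume and of the enzyme dose therefore cannot be told apart from those of the hemorrhage.

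The counts assigned to genes ranged from 6701301 to 18817645 per library. Of the 12 striatal neuron markers, such as Penk and Ppp1r1b, none was at 0 in every rat, and their summed level was 8120 to 8170 TPM in Normal. TPM is a level scaled to a fixed sum per library and corrected for gene length, whereas CPM is scaled to library size with a TMM factor. IS-HA replicate 2 stood apart: it had the smallest library, and its voom quality weight, which is low for a rat far from its group, was 0.155, against 0.513 to 1.98 for the other rats. Where leaving it out changed the calls of a gene list, the calls without it are given beside the list. All 7 genes passed the filter on low counts.

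In the RefSeq annotation of GRCr8, the 6 ligand genes lie on chromosome 10 and Ccr2 on chromosome 8. Ccl2 and Ccl7 are next to each other, and Ccl6, Ccl3 and Ccl4 follow one another. A gene named LOC103693406 overlaps both Ccl6 and Ccl3, and reads of overlapping genes or close paralogs can be hard to assign. The RefSeq promoter table held 3 of the 7 genes, Ccl6, Ccl7 and Ccr2. Their windows run from 250 bases before to 50 bases after the start and are printed because Ccl7 and Ccl6 were among the most abundant CC ligands after hemorrhage. Capitals mark every match, on either strand, to a TATA box (TATAAA), an AP-1 site (TGANTCA), the PU.1 core (GAGGAA) and the kappaB consensus.

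Ccl7 promoter, GRCr8 chr10:67513845-67514144, plus strand: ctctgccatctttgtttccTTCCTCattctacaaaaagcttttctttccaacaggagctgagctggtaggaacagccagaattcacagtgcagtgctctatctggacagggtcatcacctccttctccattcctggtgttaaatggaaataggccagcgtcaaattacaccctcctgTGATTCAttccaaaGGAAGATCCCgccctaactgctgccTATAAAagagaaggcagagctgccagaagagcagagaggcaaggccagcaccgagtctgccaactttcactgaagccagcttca

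Ccl6 promoter, GRCr8 chr10:68883317-68883616, minus strand: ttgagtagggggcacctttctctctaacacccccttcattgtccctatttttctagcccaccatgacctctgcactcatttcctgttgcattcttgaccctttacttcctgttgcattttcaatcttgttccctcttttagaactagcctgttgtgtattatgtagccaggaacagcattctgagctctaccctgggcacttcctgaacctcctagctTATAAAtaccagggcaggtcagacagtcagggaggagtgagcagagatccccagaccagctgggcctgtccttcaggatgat

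Ccr2 promoter, GRCr8 chr8:132611953-132612252, plus strand: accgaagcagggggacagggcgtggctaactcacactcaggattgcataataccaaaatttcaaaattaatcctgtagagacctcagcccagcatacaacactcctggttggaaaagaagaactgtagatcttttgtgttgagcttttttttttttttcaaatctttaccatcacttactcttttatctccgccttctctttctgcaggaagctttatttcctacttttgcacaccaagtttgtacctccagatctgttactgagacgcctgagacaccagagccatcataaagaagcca

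The Ccl7 window held all 4 motifs, with TATAAA beginning 34 bases upstream of the start and the AP-1 site, matched on both strands, 73 bases upstream. The kappaB consensus at 59 bases and the PU.1 core at 231 bases upstream were both on the opposite strand. No match overlapped that of another motif. The Ccl6 window held only TATAAA, 32 bases upstream, and the Ccr2 window held none of the 4. Among all 33469 promoter windows of the table, 14.2% held TATAAA, 7.33% the AP-1 letters, 27.6% the PU.1 core and 7.51% the kappaB consensus. A match is a description of the letters and not evidence of binding.

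The first question was whether the CC genes differed between each hemorrhage group and Normal. Ccl2, Ccl3, Ccl4, Ccl6, Ccl7 and Ccr2 were higher in IC, in IS and in IS-HA than in Normal, and Ccl5 was not called in any of the 3 comparisons. Ccl2 and Ccl7, the ligands of Ccr2, had the largest fitted differences among these genes. A gene was called where its absolute log2 fold change was at least 1 and its p, from the quasi-likelihood test of edgeR and adjusted by the Benjamini-Hochberg method over 15742 genes, was under 0.05. By that rule 6 of the 7 genes were higher in IC, where 10.9% of all tested genes were, 6 of 7 in IS, against 18.8% of all, and 6 of 7 in IS-HA, against 15.1% of all. Without IS-HA replicate 2 the same 6 genes were called in IS-HA, against 12.7% of all. The median log2 fold change of the 7 genes was 4.99 in IC, 6.30 in IS and 5.27 in IS-HA, beside 0.00335, 0.0181 and 0.0557 over all genes tested. In CPM, every hemorrhage rat was above both Normal rats for the same 6 genes in each group, which held for 32.4%, 37.6% and 31.7% of all tested genes in IC, IS and IS-HA. The 3 comparisons share the 2 Normal rats. In bulk RNA, more cells that express a gene and more RNA per cell cannot be told apart.

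**Figure D1:**
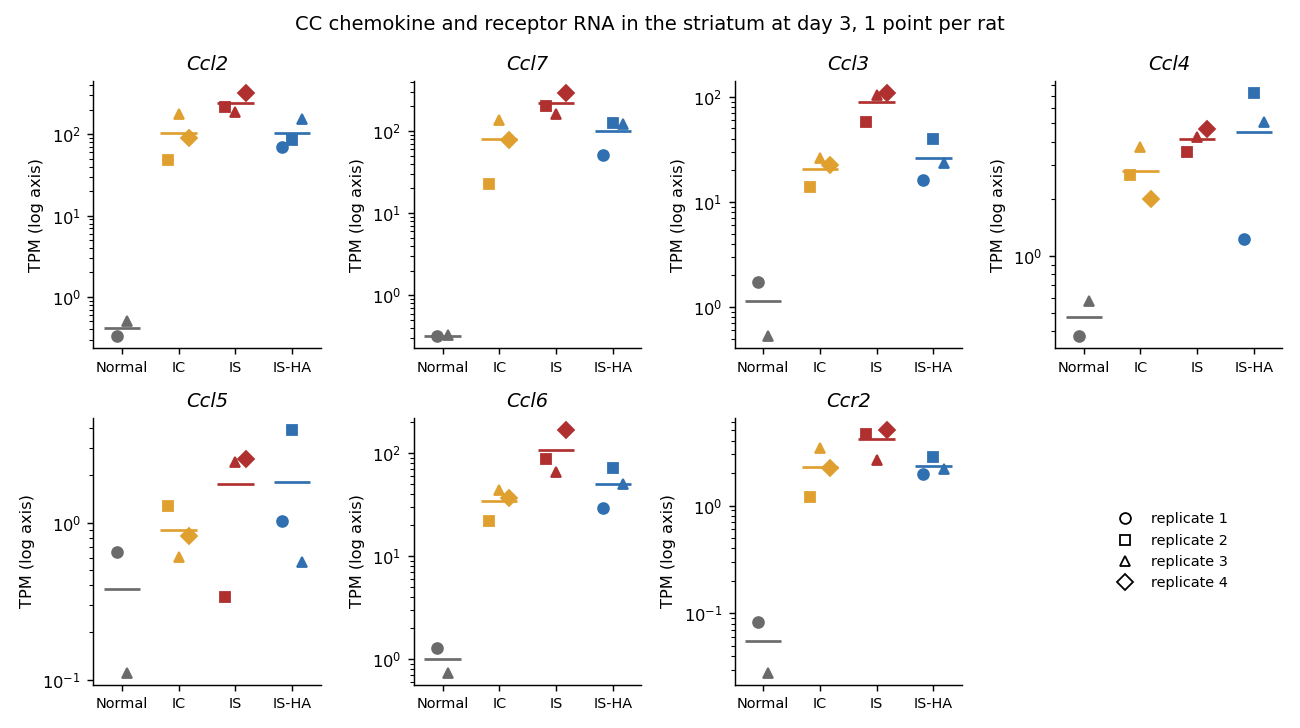
TPM of the 7 CC genes on log axes, with 1 point per rat, the marker shape giving the replicate number and the horizontal line the group mean. For Ccl2, Ccl3 and Ccl7 the 3 IS rats stand above all IC and all IS-HA rats, while for Ccl5 every hemorrhage group overlaps Normal.

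Ccl2 (ENSRNOG00000007159), which attracts monocytes through Ccr2, had 2 and 3 counts in the Normal rats and 230 to 1146 counts in the 9 collagenase rats. Its level was 0.332 and 0.509 TPM in Normal, 47.6, 177 and 89.0 TPM in IC replicates 2, 3 and 4, 216, 186 and 320 TPM in IS replicates 2, 3 and 4, and 69.9, 85.8 and 153 TPM in IS-HA replicates 1, 2 and 3. The IS rats were the highest, and the ranges of IC and IS-HA overlapped. The fitted log2 fold change against Normal was 9.11 in IS (standard error 0.84, adjusted p = 4.02e-05 from edgeR), 7.81 in IC (standard error 0.82, adjusted p = 0.000213) and 7.82 in IS-HA (standard error 0.82, adjusted p = 0.000133). With so few counts in Normal these values depend on the small count that the fit adds. The ratio of counts corrected for library size was 555 in IS, with an exact 95% counting interval of 237 to 1710, and 254 (109 to 783) in IC. These intervals cover counting error only.

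Ccl7 (ENSRNOG00000000239), another ligand of Ccr2, followed Ccl2 closely in level. It had 2 counts in each Normal rat, or 0.320 and 0.327 TPM. In IC it stood at 22.5, 138 and 78.6 TPM in replicates 2, 3 and 4, in IS at 204, 162 and 290 TPM, and in IS-HA replicates 1, 2 and 3 at 50.6, 125 and 122 TPM. IC was the most spread of the groups, with a CV (SD as a share of the mean) of 72.6% against 29.8% in IS. Its highest rat lay above all IS-HA rats in TPM, but not in CPM, with 46.9 in IC replicate 3 and 55.1 in IS-HA replicate 2. The log2 fold change was 9.32 in IS (standard error 1.12, adjusted p = 0.000151 from edgeR), 7.78 in IC and 8.17 in IS-HA against Normal. The ratio to Normal of 653 in IS had a counting interval of 255 to 2400, since Normal held 4 counts in all.

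Ccl3 (ENSRNOG00000011205), a ligand of Ccr1 that activates macrophages and neutrophils, was measured at 10 and 3 counts in Normal. Its level was 1.73 and 0.529 TPM there, 13.9, 26.1 and 22.3 TPM in IC replicates 2, 3 and 4, 57.4, 105 and 108 TPM in IS replicates 2, 3 and 4, and 16.0, 40.0 and 23.3 TPM in IS-HA replicates 1, 2 and 3. The lowest IS rat was above the highest rat of each other group, and IC and IS-HA overlapped. Against Normal the log2 fold change was 6.30 in IS (standard error 0.75, adjusted p = 0.000144 from edgeR), 4.10 in IC (adjusted p = 0.00302) and 4.53 in IS-HA (adjusted p = 0.00134). Without Normal replicate 3, the lower Normal rat, Ccl3 in IC stood at 3.45 and was not called (adjusted p = 0.0524).

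Ccl4 (ENSRNOG00000011406), a macrophage chemokine and the neighbour of Ccl3, was called in all 3 comparisons but stood much lower. It was measured at 0.378 and 0.579 TPM in Normal, 2.67, 3.77 and 2.01 TPM in IC, 3.54, 4.21 and 4.66 TPM in IS and 1.22, 7.22 and 5.06 TPM in IS-HA, in order of replicate number. The 3 hemorrhage groups overlapped one another. IS-HA held both the lowest and the highest collagenase rat, and the highest was replicate 2. The log2 fold change against Normal was 2.47 in IC (standard error 0.77, adjusted p = 0.0481 from edgeR), 3.10 in IS (adjusted p = 0.00783) and 3.20 in IS-HA (adjusted p = 0.0114). The IC call passed in 10 of 21 alternative fits, with adjusted p from 0.00653 to 0.331. All 3 calls of Ccl4 were lost when either Normal rat was left out, with adjusted p of 0.193, 0.0561 and 0.0778 in IC, IS and IS-HA without replicate 1 and of 0.22, 0.0522 and 0.0801 without replicate 3. The IC call was also lost without any 1 of the IC or IS rats or without IS-HA replicate 3, with adjusted p from 0.0537 to 0.14.

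Ccl5 (ENSRNOG00000010906), a ligand of Ccr1 and Ccr3 best known from T cells, remained near the limit of detection. No library held more than 16 counts of it, and IS replicate 2, at 2 counts, had fewer than Normal replicate 1, at 6. Its mean was 0.381 ± 0.382 TPM (SD, n = 2) in Normal, 0.903 ± 0.345 (SD, n = 3) in IC, 1.77 ± 1.24 (SD, n = 3) in IS and 1.83 ± 1.81 (SD, n = 3) in IS-HA. All 4 groups overlapped. The log2 fold change against Normal was 1.11 in IC, 2.16 in IS and 2.15 in IS-HA, with standard errors of 1.16, 1.14 and 1.14 and adjusted p of 0.526, 0.135 and 0.165 from edgeR. In IS the ratio to Normal was 4.46 with a counting interval of 1.9 to 12.1, which covers counting error only, while the 3 IS rats ranged from 0.339 to 2.56 TPM.

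Ccl6 (ENSRNOG00000030021), a rodent chemokine made by macrophages that acts through Ccr1, had the most counts of these genes in Normal, 16 and 9. In TPM it stood at 1.29 and 0.739 in Normal, 21.6, 43.5 and 36.6 in IC replicates 2, 3 and 4, 87.3, 64.7 and 167 in IS replicates 2, 3 and 4, and 29.5, 71.2 and 50.1 in IS-HA replicates 1, 2 and 3. All IS rats were above all IC rats, and IS-HA overlapped both groups. Against Normal the log2 fold change was 6.72 in IS (standard error 0.76, adjusted p = 0.00011 from edgeR), 4.99 in IC (adjusted p = 0.000978) and 5.65 in IS-HA (adjusted p = 0.000421).

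Ccr2 (ENSRNOG00000063127), the receptor, had 3 counts and 1 count in Normal. Its level was 0.0828 and 0.0282 TPM there, 1.21, 3.44 and 2.22 TPM in IC, 4.65, 2.67 and 5.03 TPM in IS and 1.98, 2.79 and 2.19 TPM in IS-HA, in order of replicate number. IS had the highest mean, but its replicate 3 fell within both other hemorrhage groups. The log2 fold change was 6.10 in IS (standard error 0.72, adjusted p = 0.000135 from edgeR), 5.19 in IC (adjusted p = 0.00076) and 5.27 in IS-HA (adjusted p = 0.000531) against Normal. The ratio to Normal was 72.0 in IS, with a counting interval of 27.8 to 266.

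**Figure D2:**
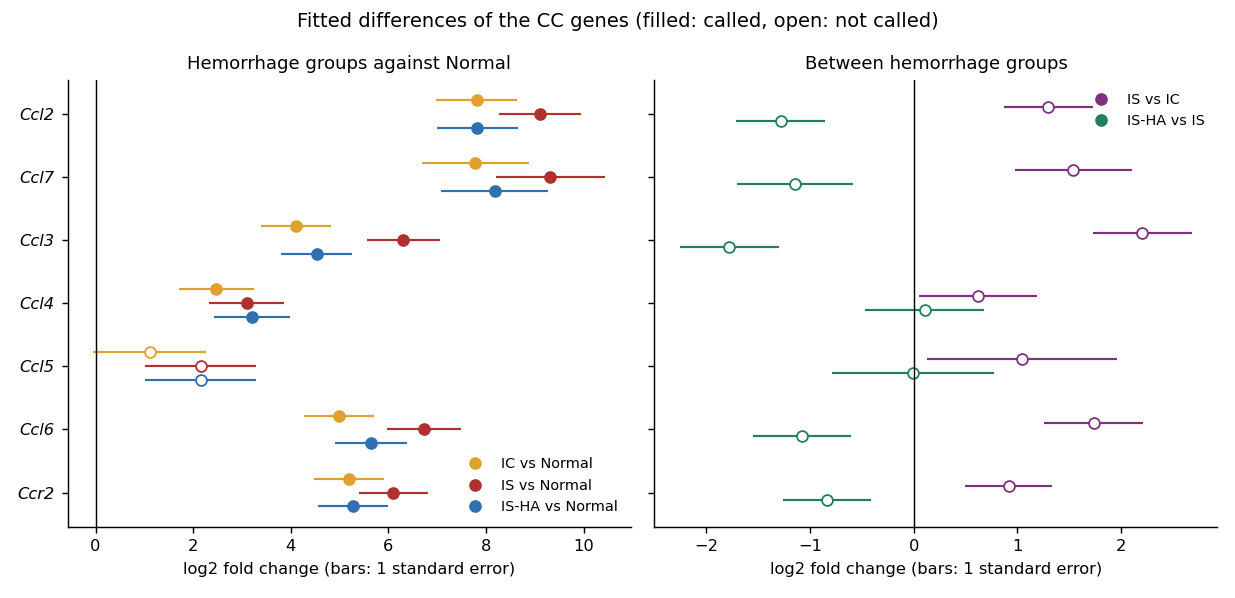
Fitted log2 fold changes of the 7 CC genes with bars of 1 standard error, for the hemorrhage groups against Normal on the left and between hemorrhage groups on the right. Filled points were called, which holds for 6 genes in each comparison with Normal, for no gene on the right and never for Ccl5.

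The second question was whether the larger hemorrhage carried more chemokine RNA than the smaller one. All 7 genes had positive log2 fold changes in IS against IC, from 0.62 for Ccl4 to 2.20 for Ccl3, and 0 of 7 were called by edgeR's quasi-likelihood test, as were 0% of all tested genes in that direction. At an unadjusted p under 0.05 with the same fold cutoff, 4 of the 7 were higher in IS, against 3.37% of all tested genes. They were Ccl3, with a log2 fold change of 2.20 (standard error 0.48, adjusted p = 0.143), Ccl6, with 1.74 (standard error 0.48, adjusted p = 0.148), Ccl2, with 1.30 (standard error 0.43, adjusted p = 0.162), and Ccl7, with 1.54 (standard error 0.56, adjusted p = 0.176). These were also the genes for which every IS rat exceeded every IC rat in CPM, 4 of 7 beside 19.2% of all tested genes. Ccr2 had 0.91 (standard error 0.42, adjusted p = 0.225) and overlapped. The median of the 7 was 1.30, beside -0.00103 over all genes tested.

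Other tools differed on this comparison. DESeq2's Wald test called Ccl3 (adjusted p = 0.00156) and Ccl6 (adjusted p = 0.0164) higher in IS, beside 1.63% of all genes. The voom fit of limma with a quality weight per rat called Ccl3, Ccl6, Ccl2 and Ccl7, with adjusted p from 0.0209 to 0.0481, beside 2.15% of all genes. Without IS-HA replicate 2, a rat of neither group, edgeR called Ccl3 (adjusted p = 0.0208) and Ccl6 (adjusted p = 0.029), beside 2.19% of all genes.

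The third question was whether aspiration was followed by lower levels. In IS-HA against IS, 0 of 7 genes were called lower by edgeR's quasi-likelihood test, beside 0% of all tested genes. At an unadjusted p under 0.05 with the fold cutoff, 3 of 7 were lower, against 0.908% of all genes. Ccl3 had a log2 fold change of -1.77 (standard error 0.48, adjusted p = 0.499), Ccl2 of -1.28 (standard error 0.43, adjusted p = 0.54) and Ccl6 of -1.08 (standard error 0.47, adjusted p = 0.553). In CPM, every IS-HA rat was below every IS rat for Ccl2, Ccl3 and Ccl7, 3 of 7 beside 5.42% of all genes. Ccl7 had a log2 fold change of -1.14 (adjusted p = 0.563) and Ccr2 of -0.84 (adjusted p = 0.563), both not called. This comparison and that of IS with IC share the 3 IS rats. The IS-HA rats were anesthetized again and had a catheter passed through the hematoma, and no group had this without aspiration. Effects of that procedure and of removing blood therefore cannot be told apart.

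Ccl4 and Ccl5 did not follow the other ligands in these values. Their log2 fold changes in IS-HA against IS were 0.11 (standard error 0.57, adjusted p = 0.971 from edgeR) and -0.0054 (standard error 0.78, adjusted p = 0.999). The sign of both depended on the fit, from -0.75 to 0.62 for Ccl4 and from -1.24 to 0.46 for Ccl5 over the alternatives. Without IS-HA replicate 2 they were -0.60 and -1.24.

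DESeq2's Wald test called none of the 7 genes lower in IS-HA than in IS, beside 0.121% of all genes, with Ccl3 at an adjusted p of 0.0538. Ccl3 was called lower by voom with quality weights (log2 fold change -2.25, adjusted p = 0.0307), beside 0.603% of all genes. It was also called by edgeR without IS-HA replicate 2 (log2 fold change -2.38, adjusted p = 0.0362), beside 0.541% of all genes. In that fit Ccl6 stood at -1.59 (adjusted p = 0.0641) and Ccl2 at -1.28 (adjusted p = 0.12). No alternative called Ccl2, Ccl6, Ccl7 or Ccr2 lower in IS-HA than in IS.

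The make-up of the CC ligand RNA was compared within each rat, since TPM is corrected for gene length. The 20 CC ligand genes with a row summed to 35.1 and 39.2 TPM in the Normal rats, to 147 to 430 TPM in IC, 564 to 935 TPM in IS and 196 to 394 TPM in IS-HA. In Normal, Ccl27, a ligand best known from skin, made up 73.7% ± 1.65 (SD, n = 2) of this sum. It made up 9.62% ± 7.32 (SD, n = 3) in IC, 2.11% ± 0.944 (SD, n = 3) in IS and 5.37% ± 1.78 (SD, n = 3) in IS-HA. Ccl27 itself was 27.4 ± 2.73 TPM (SD, n = 2) in Normal and 13.6 ± 3.23 TPM (SD, n = 3) in IS.

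Ccl2 was the largest share of the CC ligand TPM on average in each hemorrhage group, with 35.8% ± 4.67 in IC, 34.3% ± 1.23 in IS and 32.3% ± 8.54 in IS-HA (SD, n = 3 each). Ccl7 followed with 25.8% ± 9.23, 31.1% ± 2.38 and 29.9% ± 3.77 (SD, n = 3 each). The shares of both overlapped among the 3 hemorrhage groups. In IS-HA replicate 2 the order was turned, with 22.7% for Ccl2 and 33.1% for Ccl7. Ccl3 held 9.43% to 18.6% in IS, against 6.08% to 9.4% in IC, so that its lowest share in IS and its highest in IC nearly met, and 5.9% to 10.5% in IS-HA, which overlapped both. No test was made of these shares.

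**Figure D3:**
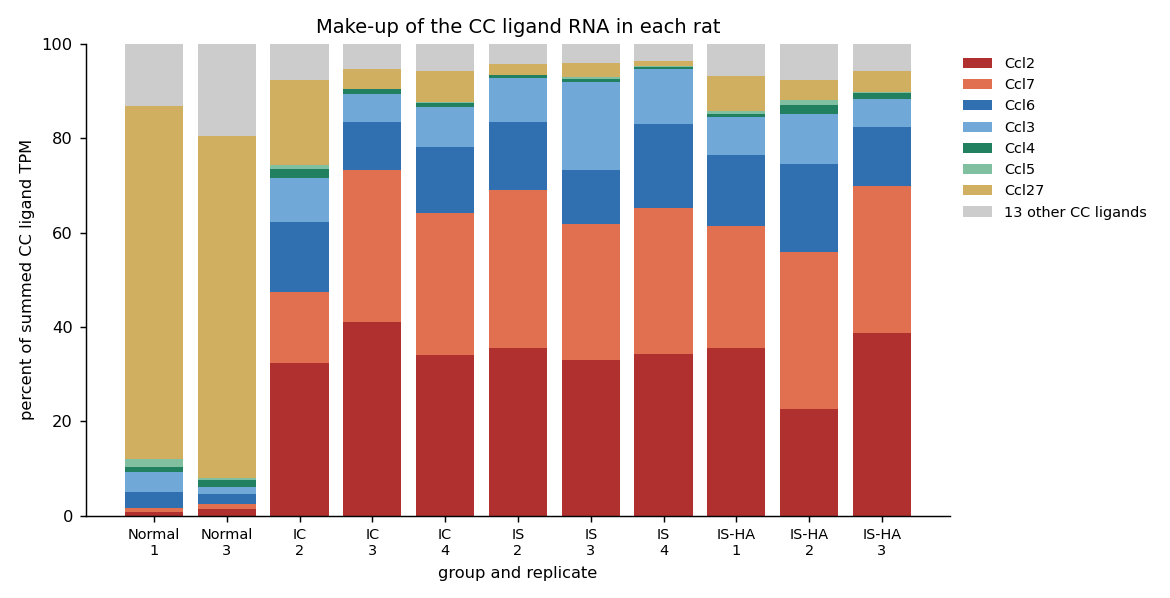
Percent of the summed TPM of 20 CC ligand genes held by each ligand, 1 bar per rat, with the group and replicate number below. Ccl27 fills most of the 2 Normal bars and Ccl2 and Ccl7 together most of the bars of the hemorrhage rats other than IC replicate 2.

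Ratios within a rat do not depend on library scaling. The ratio of Ccl3 to Ccl4, neighbouring genes, was 16.2, 24.9 and 23.3 in IS replicates 2, 3 and 4, above every other rat. It was 5.18, 6.93 and 11.1 in IC replicates 2, 3 and 4 and 13.1, 5.54 and 4.6 in IS-HA replicates 1, 2 and 3, which overlapped. In Normal it was 4.57 and 0.914, where each gene had at most 10 counts. Ccl4 had 11 to 43 counts in the hemorrhage rats, with 11 in IS-HA replicate 1 and 24 in IS replicate 2. The counting error of the ratios was not estimated. The ratio of Ccl2 to Ccl7 was 1.06 to 1.15 in the 3 IS rats, 1.13 to 2.12 in IC and 0.684 to 1.38 in IS-HA, with overlap of all 3 groups. The ratio of Ccl2 to its receptor Ccr2 was 46.5, 69.9 and 63.5 in IS, 39.5, 51.4 and 40.1 in IC and 35.3, 30.7 and 69.7 in IS-HA, in order of replicate number, and these groups overlapped too. These ratios are descriptions without a test.

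**Figure D4:**
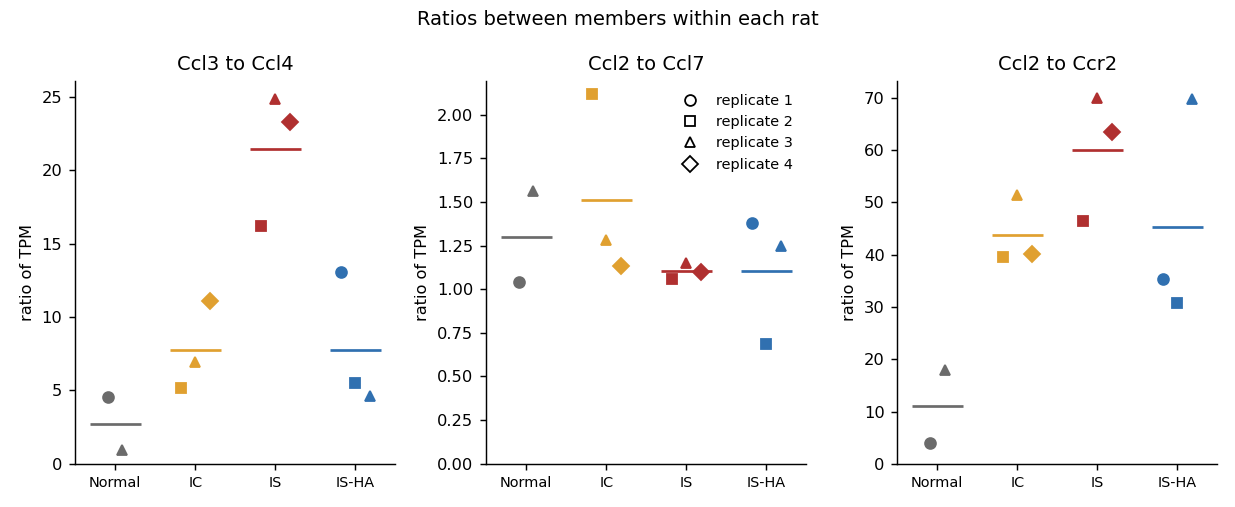
Ratio of TPM between pairs of CC genes within each rat, on linear axes from 0, with the marker shape giving the replicate number and the line the group mean. The Ccl3 to Ccl4 ratio of the 3 IS rats, 16.2 to 24.9, lies above all other rats, whereas the other ratios overlap among hemorrhage groups. Ccl4 had only 11 to 43 counts in the hemorrhage rats.

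The other CC genes behaved unevenly. Of 14 other CC ligands with a row, 5 passed the filter. Ccl9, a macrophage-attracting ligand of Ccr1, was higher than Normal in IC (log2 fold change 1.97), IS (3.39) and IS-HA (2.80). Ccl12, a rodent ligand of Ccr2, was called in IS (4.94, adjusted p = 0.00887 from edgeR) and IS-HA (4.40, adjusted p = 0.0268) and not in IC (3.14, adjusted p = 0.126). In IS-HA its counts lay mostly in replicate 2, with 24 against 3 and 10 in replicates 1 and 3. Without that rat edgeR called Ccl12 in IC and IS and not in IS-HA. With all rats, voom with quality weights called it in IS alone. Ccl27 was lower in IS than in Normal, at -1.0 (adjusted p = 0.00784), as were 17.0% of all tested genes, though not by voom with quality weights, while Ccl19 and Ccl24 were not called in any comparison. Of these 5 the median in IS against Normal was 2.04.

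Of 13 other CC receptor genes, 8 passed the filter. Ccr6, Ccr7 and Ccrl2 were among those higher than Normal in IC, IS and IS-HA. Ccr7, which guides dendritic cells and T cells, had log2 fold changes of 3.11 in IC, 4.69 in IS and 3.45 in IS-HA against Normal. In Normal the summed counts were 8 for Ccr7, 5 for Ccr6 and 17 for Ccrl2. Ccr6 ranged from 0.597 to 2.35 TPM in IS-HA, with a median of 0.722. Ackr4, a scavenging receptor, was lower in IC (-1.06) and IS-HA (-1.34), where 2.66% and 7.71% of all tested genes were lower, and stood at -0.94 in IS. Between hemorrhage groups 0 of these 13 tested ligands and receptors were called by edgeR's quasi-likelihood test. DESeq2's Wald test and voom with quality weights each called 1, Ccr7, higher in IS than in IC and none in IS-HA against IS. EdgeR without IS-HA replicate 2 called none of them between hemorrhage groups. At an unadjusted p under 0.05 with the fold cutoff in edgeR, 3 were higher in IS than in IC, beside 3.37% of all tested genes. By the same rule 1 was lower in IS-HA than in IS, beside 0.908% of all.

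Genes that carry the signal of chemokine receptors into cell movement or regulate those receptors were read as a list of 20, all of which passed the filter. Against Normal, 10 were higher in IC, 12 in IS and 10 in IS-HA, and 0, 2 and 1 were lower. The counts without IS-HA replicate 2 were 11, 12 and 11 higher and 0, 2 and 0 lower. For this list and the later ones, the shares of all tested genes higher than Normal in IC, IS and IS-HA were 10.9%, 18.8% and 15.1% with all rats. The shares lower were 2.66%, 17.0% and 7.71%. Gnai2, an inhibitory G protein subunit that these receptors couple to, had log2 fold changes of 1.07 in IC, 1.40 in IS and 1.10 in IS-HA. Gnb2 (0.26 in IS, adjusted p = 0.427 from edgeR), Gnb1 and Ptk2b were not called. The list's median in IS was 1.35, beside 0.0181 over all genes tested. Between hemorrhage groups edgeR called 0 of the 20. At an unadjusted p under 0.05 with the fold cutoff 1 was higher and 1 lower in IS than in IC, and 1 was higher in IS-HA than in IS. Of all 15742 tested genes, 530 were higher and 810 lower in IS than in IC at that threshold, and 431 were higher and 143 lower in IS-HA than in IS. When IS-HA replicate 2 was left out edgeR called Arrb1, which uncouples receptors from their G proteins, lower in IS than in IC and higher in IS-HA than in IS. It also called Rac2 higher in IS than in IC, as were 2.19% of all genes in that fit. Over all genes, the calls of that fit were more often lower than higher in IS against IC. In IS-HA against IS they were more often higher than lower. The calls of Arrb1, 1 of 20 genes, thus went in the more frequent directions. Arrb1 and Rac2 are named after their values were seen.

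A list of 19 genes tied to the induction of CC ligands, of cytokines, transcription factors and regulators of NF-kappaB, had 17 that passed the filter. Of these, 13 were higher than Normal in IC, 12 in IS and 12 in IS-HA, and none was lower. These counts were 13, 14 and 12 without IS-HA replicate 2. Nfkbia, an inhibitor of NF-kappaB that is itself a target of it, had log2 fold changes of 1.02, 1.91 and 1.18 in the 3 groups. Stat3 had 1.36, 1.86 and 1.54, and Jun, a component of AP-1, had 1.12, 1.49 and 1.26. Rela, a subunit of NF-kappaB, did not reach the fold cutoff, with 0.81 in IS (adjusted p = 0.0132 from edgeR). Ifng was at 0 in every rat of Normal, IC and IS-HA, and Csf2 was at 0 in all 11 rats. In IS-HA against IS the median of the 17 was -0.37, beside 0.0452 over all genes tested. In that comparison edgeR and DESeq2's Wald test called 0 of them, and 2 were lower at an unadjusted p under 0.05 with the fold cutoff in edgeR. Voom with quality weights and edgeR without IS-HA replicate 2 each called 1 lower, Il1b. In IS against IC, DESeq2's Wald test, voom and edgeR without that rat each called 2 higher, Il1b and Fosl1, where edgeR with all rats called 0. Il1b and Fosl1 are named after their values were seen.

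Monocyte and macrophage markers were read beside the ligands. All 7 monocyte markers that had a row, among them Lyz2, S100a4, Fn1 and Vcan, were higher than Normal in IC, IS and IS-HA. Their summed level was 66.5 to 75.6 TPM in Normal, 786 to 1860 in IC, 1890 to 4470 in IS and 1190 to 2100 in IS-HA. Most of this sum after hemorrhage was Lyz2, with means of 818, 2120 and 908 TPM in IC, IS and IS-HA beside mean sums of 1290, 2950 and 1510 TPM. All 12 microglia and macrophage markers, among them C1qb and Tyrobp, were also higher in each group, with sums of 235 to 353 TPM in Normal, 2400 to 3420 in IC, 4700 to 5900 in IS and 3260 to 5560 in IS-HA. The 8 homeostatic microglia markers, such as Cx3cr1 and P2ry12, summed to 333 to 416 TPM in IC, 258 to 307 in IS and 233 to 411 in IS-HA, and 5, 4 and 5 of them were higher than Normal, with Siglech at 0 in both Normal rats. Siglech was no longer called in IS-HA without its replicate 2, which left 4. In IS against IC the median of the 8 was -0.587 (range -0.834 to 1.23), beside -0.00103 over all genes tested. In IS-HA against IS it was 0.381 (range -1.43 to 0.695), beside 0.0452 over all genes tested. Of the 8, 3 were above 0 in the first comparison and 6 in the second. The medians of the 7 CC genes were 1.30 and -1.08, and both comparisons share the IS rats. EdgeR called 0 of the monocyte, macrophage and homeostatic markers between hemorrhage groups, and at an unadjusted p under 0.05 with the fold cutoff 2 monocyte and 2 macrophage markers were higher in IS than in IC and 3 monocyte markers were lower in IS-HA than in IS. With IS-HA replicate 2 left out it called the monocyte marker Ly6c higher in IS than in IC and lower in IS-HA than in IS, and the macrophage markers Tyrobp and Cd14 higher in IS than in IC.

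Neutrophil markers, led by S100a8 and S100a9, summed to 5.35 to 5.54 TPM in Normal, 99.4 to 314 in IC, 548 to 783 in IS and 191 to 908 in IS-HA, and all 7 of 10 that passed the filter were higher in each hemorrhage group. In IS-HA replicate 2 they reached 908 TPM, against 191 TPM in replicate 1 and 246 TPM in replicate 3, and Mpo was at 0 in every rat of Normal, IC and IS. Between hemorrhage groups edgeR called 0 of the 7, and at an unadjusted p under 0.05 with the fold cutoff 5 were higher in IS than in IC and 3 were lower in IS-HA than in IS. In IS against IC, voom with quality weights and edgeR without IS-HA replicate 2 each called S100a8, S100a9, Cxcr2 and Mmp9 higher, and DESeq2's Wald test called S100a9 and Cxcr2. In IS-HA against IS, voom called the same 4 lower, edgeR without IS-HA replicate 2 called S100a9, Cxcr2 and Mmp9, and DESeq2 called Cxcr2.

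T and NK cell markers summed to 1.13 to 1.79 TPM in Normal, 48.4 to 145 in IC, 186 to 505 in IS and 89.5 to 226 in IS-HA. Most of this sum after hemorrhage was Cd8a, with means of 82.4, 256 and 123 TPM in IC, IS and IS-HA. The mean sums there were 96.4, 295 and 142 TPM. In IS, Cd8b averaged 23.8, Cd2 8.95 and Cd3g 3.16 TPM, and Cd3d, Cd3e, Nkg7 and Prf1 averaged 0.758, 0.788, 1.01 and 0.362 TPM. The sum therefore mainly follows Cd8a and not the list as a whole. Of the 6 markers that passed the filter, 2 were higher than Normal in IC, 4 in IS and 3 in IS-HA, Cd8a and Cd8b in each, while Cd3d and Cd3e were not called in any group. Between hemorrhage groups edgeR called 0 of them, and 4 were higher in IS than in IC at an unadjusted p under 0.05 with the fold cutoff. Without IS-HA replicate 2, when 5 passed the filter, it called Cd2, Cd3g and Cd8a higher in IS than in IC, Cd2 and Cd3g lower in IS-HA than in IS, and 3 higher than Normal in IC. Of the 12 striatal neuron markers, 2 were lower than Normal in IC, 11 in IS and 10 in IS-HA, or 4, 12 and 10 without that rat, and 0 were called between IS and IC, or 3 lower without it. The marker genes named for calls between hemorrhage groups are named after their values were seen.

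The part of these cell types in the chemokine values was not tested. The rest of the marker lists changed in fewer genes. Of 7 astrocyte markers 1, Gfap, was higher and 1 was lower than Normal in each hemorrhage group. Between hemorrhage groups edgeR called none of the astrocyte markers, and at an unadjusted p under 0.05 with the fold cutoff 2 were lower in IS than in IC and 1 was higher in IS-HA than in IS. It called, without IS-HA replicate 2, Aqp4 and Slc1a2 lower in IS than in IC and Slc1a2 higher in IS-HA than in IS. These were also the more frequent directions of the calls over all genes in that fit. Of 7 endothelial markers 1, Vwf, was higher in each. Of 6 oligodendrocyte markers 3 were lower in IS and none in IC or IS-HA. The 3 red cell markers with a row were not called in any comparison by edgeR or DESeq2, and voom with quality weights called Hbb lower in IS-HA than in Normal. Their sum was 54.2 to 57.7 TPM in Normal, 38.9 to 164 in IC, 24.8 to 38.8 in IS and 15.6 to 32.1 in IS-HA. At an unadjusted p under 0.05 with the fold cutoff, 1 of the 3 was lower in IS than in IC.

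**Figure D5:**
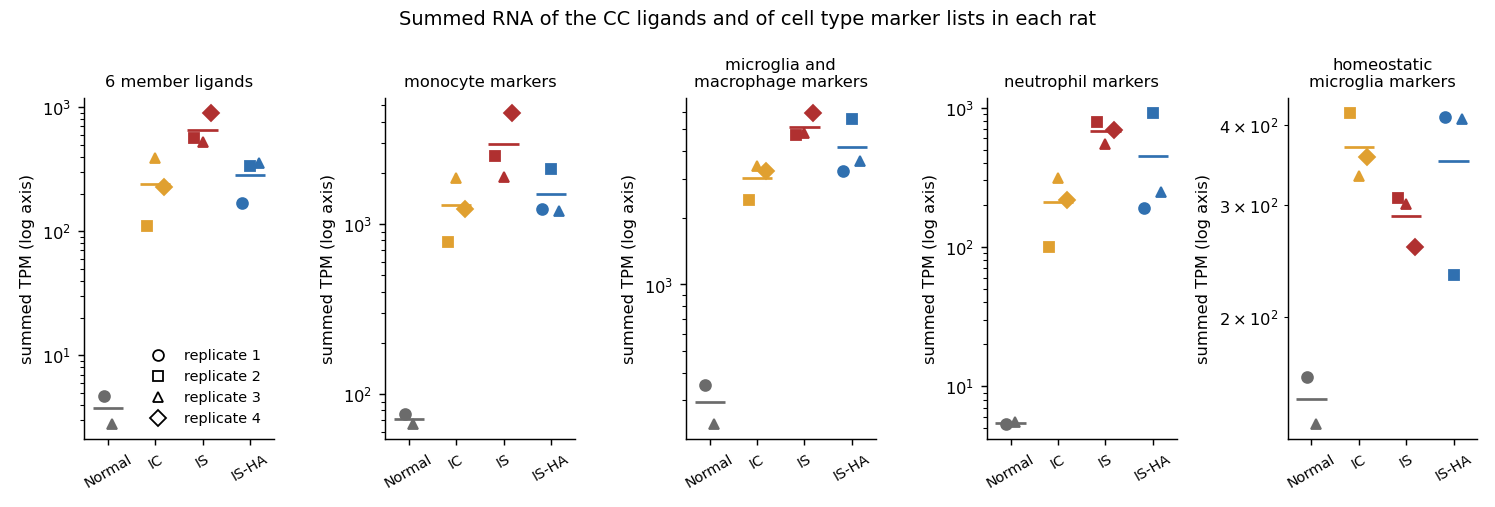
Summed TPM of the 6 CC ligands and of 4 marker lists on log axes, with 1 point per rat, the marker shape giving the replicate number and the line the group mean. The ligand sum of every IS rat, 524 to 892, exceeds that of every IS-HA rat, 168 to 354, while IS-HA replicate 2 lies within the IS range for the monocyte and macrophage lists and above it for the neutrophil list.

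Among 12286 genes with a mean of at least 5 CPM over the 9 collagenase rats, those whose log2 CPM was most like that of each CC gene were found by Pearson's r. The r joins differences between groups with those within them and is given as a description. The 3 highest of 12286 values over 9 rats are high by selection, and Ccl5, with at most 16 counts in any rat, still reached 0.966. Ccl6 was most like Lyn, a kinase of myeloid cells (r = 0.989), RT1-DMb, of antigen presentation (0.985), and Dap (0.984). Ccl2 was most like Plk3 (0.98), Itpripl2 (0.979) and Bcl3, an NF-kappaB cofactor (0.967), and Ccl7 was most like Itgb7, a leukocyte integrin (0.981), Ppp1r3b (0.978) and Igfbp3 (0.974). Ccl3 was most like Osgin1 (0.974), Rbpms2 (0.973) and Htatip2 (0.97), and Ccr2 most like Olr1585 (0.985), Tmem106a (0.976) and the interferon-inducible Sp100 (0.972). The nearest genes to Ccl4 were Abcg3l4, Atp13a1 and Abhd11, with r of 0.936 to 0.955, and those to Ccl5 were Dync1li1, Gatb and Fxr2, with r of 0.955 to 0.966. No gene was shared among these lists.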

How the data were processed

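Poly(A) RNA of 11 striata was analysed. Per the labels, the submitters' processing notes name fastp 0.20.0, HISAT2 2.1.0, SAMtools 1.9, featureCounts of Subread and DESeq2, with build mRatBN7.2. The strand and multiple-mapping settings of the counting are not given in the sources used here. For each gene the authors deposited raw read counts and TPM, in which counts are divided by gene length and scaled to 1 sum per rat. Columns were assigned to rats by name, and 0 columns of values were left over.

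From the counts, low genes were removed with filterByExpr, libraries were scaled by TMM, and 15742 genes were tested with edgeR 4.0.16 (R 4.3.3) by the quasi-likelihood F test, with all 4 groups in 1 fit. The p-values were adjusted over all tested genes by the Benjamini-Hochberg method. The common dispersion was 0.0691. Standard errors were approximated from the fold change and F. TPM entered as levels only. A floor of 3 counts is 0.448 CPM in the smallest library. Intervals of ratios are exact 95% Poisson intervals and cover counting error only. The replicates are separate rats, and the labels name no batch.

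The genes and lists were chosen with earlier results of these data known. The 7 genes were named throughout. Of the other CC ligands and receptors those that passed the filter could be named, apart from results that are not reported here, of each other list up to 4 with the highest mean TPM, and for each member the 3 genes most correlated in log2 CPM (prior count 2). Alternatives were DESeq2 1.42.0 (Wald test, and its size factors in edgeR), library size alone, voom with quality weights and log2(TPM + 1) or log2(TPM + 0.1) in limma 3.58.1, other filters, only the groups compared, a replicate block, scaling without 24 hemoglobin and mitochondrial genes, and each rat left out.

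The tests were tried on simulated counts for IS against IC with 200 changed genes among 15742. At a log2 change of 2, edgeR recovered 99.5% of them with 2.93% of calls false, DESeq2 99.0% with 10.4% and voom 99.0% with 3.88%. At a log2 change of 1 they recovered 30.5%, 40.0% and 26.0%, with 4.69%, 14.9% and 1.89% of calls false. Every simulated gene had the common dispersion and a mean taken over all rats, and changed genes were drawn only above a minimum mean CPM. These rates therefore do not cover genes that vary more or stand lower. Promoters are RefSeq's in GRCr8, another build than that of the counts. Summaries were made in Python 3.11.15 and figures in matplotlib 3.10.9.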

Additional observations from a re-analysis of the deposited data

How the results depend on the processing

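Of 732 recomputed log2 fold changes of the 7 genes, 688 kept their direction and side of the threshold, 19 lost and 10 gained a call, and 15 turned sign. Those that turned were Ccl4 and Ccl5 in IS-HA against IS. Ccl4 became -0.75 with voom and quality weights, -0.0917 on log2(TPM + 1), -0.194 on log2(TPM + 0.1), -0.042 without IS replicate 2 and -0.601 without IS-HA replicate 2, in a leave-one-out range of -0.601 to 0.623. Ccl5 became 0.0595 with DESeq2's Wald test, 0.00505 on log2(TPM + 0.1), 0.0059 with no filter, 0.00921 with only the groups compared, and 0.00255 to 0.462 without 1 of Normal replicates 1 and 3, IS replicates 3 and 4 or IS-HA replicates 1 and 3. Its leave-one-out range was -1.24, without IS-HA replicate 2, to 0.462. The cause was not tested.

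In IS against IC, 0 of the 7 genes were called by edgeR, 2 by DESeq2's Wald test, 4 by voom with quality weights and 2 without IS-HA replicate 2. Leaving out any other rat gave 0, so the range was 0 to 2. In IS-HA against IS, 0 were called, 1 by voom with quality weights and 1 without IS-HA replicate 2, with a leave-one-out range of 0 to 1. Against Normal, leaving out 1 rat gave 4 to 6 in IC and 5 to 6 in IS and in IS-HA.

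Over all genes, voom called 780 between IS and IC and 290 between IS-HA and IS, DESeq2's Wald test called 603 and 63, and edgeR called 0 and 1, or 964 and 481 without IS-HA replicate 2. In IC against Normal edgeR called 2138 genes, 1250 without Normal replicate 1, 821 without Normal replicate 3 and 1307 without IC replicate 3. In IS against Normal it called 5633, and 3633 without Normal replicate 3. In IS-HA against Normal it called 3596, 1529 without Normal replicate 3 and 2229 with only the groups compared.

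Rats with the same number are different animals, and the deviations of IC and IS rats with the same number from their group means had correlations of 0.356, -0.34 and 0.0848, so the numbers were not taken as pairs. With the number as a replicate block, edgeR called 4 of 7 genes in IC, 5 in IS and 6 in IS-HA against Normal and 0 between hemorrhage groups, and over all genes 839, 2696 and 2241 against Normal and 0 and 0 between hemorrhage groups. A minimum of 10 counts in every rat removed all 7 genes and gives no value for them. In Normal none of the 7 genes had more than 16 counts, and Ccl5 had at most 16 in any rat, which limits their precision.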

Other observations

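Among the CC genes under the filter on low counts, Ccl17, which attracts T cells through Ccr4, is described here after its values were seen. Its level was 0.753 ± 0.345 TPM (SD, n = 2) in Normal, 2.56 ± 0.672 (SD, n = 3) in IC, 3.12 ± 0.895 (SD, n = 3) in IS and 0.856 ± 0.267 (SD, n = 3) in IS-HA, and every IS-HA rat was below every IC and IS rat. Each IS-HA rat held 2 counts of it and no rat more than 11, and with all rats it was not tested. Its summed counts were 6 in Normal, 27 in IC, 23 in IS and 6 in IS-HA. In CPM, 5.42% of all tested genes had every IS-HA rat below every IS rat, a set of genes that leaves out Ccl17. In edgeR's fit without IS-HA replicate 2, where it passed the filter, it was called higher than Normal in IC and in IS and was not called in IS-HA against Normal or against IS.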
